A study of Mus musculus with 7 samples.

Results

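The mitochondrial genome of the mouse encodes 37 genes, and all 37 were present among the 49382 gene rows of an RNA-seq table from mouse embryonic fibroblasts (MEFs, primary fibroblasts grown from mid-gestation embryos). They were taken by the mt- prefix of their symbols and comprise 13 mRNAs, 2 rRNAs and 22 tRNAs. The table holds 7 libraries of wild-type MEFs plated at 10000 cells per cm2, 1 untreated control and 1 library for each of 6 stresses that a tissue can meet. Cells were kept for 10 hours without glucose, without glutamine, at 0.1% oxygen (hypoxia), or with 1 µM thapsigargin, a blocker of the calcium pump of the endoplasmic reticulum (ER stress). The remaining libraries were from cells given 10 µM sodium arsenite (oxidative stress) or 100 mM added NaCl (osmotic stress) for 3 hours. All conditions were set against the same control, whose time of collection is not given in the sources used here. Each condition had 1 library, so no difference could be compared with the spread between cultures, and no p-value or error is given anywhere below.

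Mammalian mitochondria transcribe both strands of their circular DNA into long precursors. The heavy strand gives both rRNAs, most tRNAs and every mRNA but mt-Nd6, which comes with the remaining tRNAs from the light strand. Excision of the tRNAs frees the rRNAs and most of the mRNAs, which lie between them, and the heavy-strand mRNAs receive short poly(A) tails. The mRNAs encode core subunits of complexes I, III, IV and V of the respiratory chain, while the other subunits, the mitochondrial ribosomal proteins and the enzymes that make and cut these RNAs come from nuclear genes.

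Values are TPM, which corrects for transcript length and expresses a transcript as a share of its library. A higher TPM can therefore come from more of that RNA or from less of the others, and these cannot be told apart. In bulk libraries, fewer cells of a type and less RNA per cell cannot be told apart either. TPM keeps no read count, so the depth is unknown. Changes are differences of log2(TPM + 1) from the control library, and "rose" and "fell" are used for changes of more than 2-fold. Of the 49382 rows, 12909 had a mean of at least 2 TPM and served as the background, and these included all 13 mRNAs, both rRNAs and 18 of the 22 tRNAs. The median change over these 12909 genes was -0.16 in oxidative stress, -0.12 in osmotic stress, and within 0.1 of 0 in the other conditions. The fibroblast markers Col1a1, Col1a2, Pdgfra, Vim, Dcn and Thy1 summed to between 5751 and 11084 TPM per library. The macrophage and leukocyte markers Ptprc, Itgam, Adgre1 and Csf1r summed to at most 3.30 TPM, and the endothelial, epithelial and muscle markers to at most 5.37, 1.08 and 0.871 TPM.

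Levels in the control library differed widely among the 13 mRNAs, although 12 of them are cut from heavy-strand precursors. mt-Atp8, a subunit of ATP synthase (complex V), had the highest TPM of any gene in the control library, at 11948. At 204 bases it is the shortest of the 13 entries, and it is read from 1 mRNA with mt-Atp6. The gap between these genes is therefore not a difference between mRNAs, and its cause was not tested. The next mitochondrial mRNAs in order, as listed, were mt-Co3 (8189), mt-Atp6 (7245), mt-Co1 (6010.3) and mt-Co2 (4588), the core subunits of cytochrome c oxidase (complex IV) and the second subunit of ATP synthase. mt-Nd1, a membrane subunit of NADH dehydrogenase (complex I), had 3758 TPM, and mt-Cytb, the cytochrome b of complex III, had 3198. The other complex I subunits were lower as listed, between 1537 TPM for mt-Nd5 and 2015 TPM for mt-Nd4l. This order changed when the nuclear copies described below were added. mt-Co1 (8442) was then above mt-Co3 (8208), and mt-Nd3 (3307) above mt-Cytb. Of the mRNAs, 7 were among the 50 most abundant genes of the control library, and the lowest of them, mt-Nd5, had rank 89. The range over the 7 libraries was 5299.8 to 10166 TPM for mt-Atp6, 6411 to 9534 for mt-Co3, 1445 to 2854 for mt-Nd4l and 1439 to 3063 for mt-Nd4. The plot of mRNA levels by library shows the same upper group of mt-Co1, mt-Co2, mt-Atp8, mt-Atp6 and mt-Co3 in each of the 7 libraries.

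**Figure D1:**
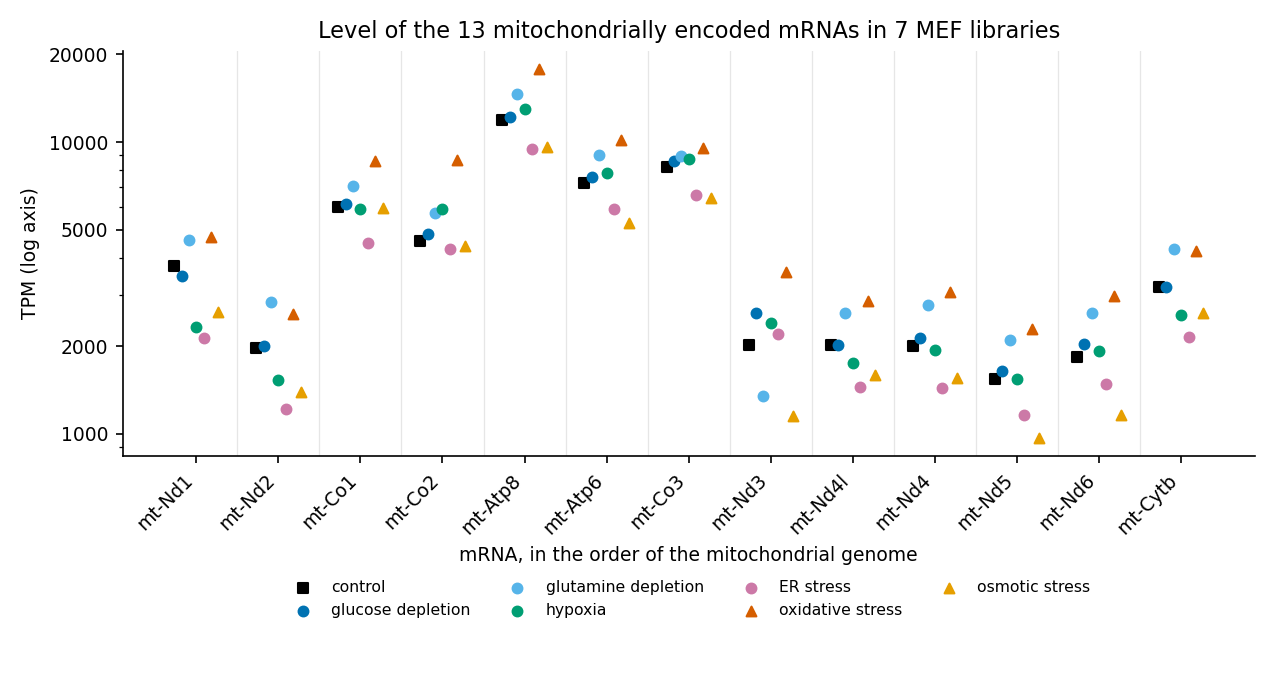
Level of each mitochondrially encoded mRNA in TPM (log axis) in the order of the genome, with 1 point per library and triangles for the 3-hour treatments. mt-Atp8, read from 1 mRNA with mt-Atp6, had the highest TPM of the 13 in every library, from 9502 to 17779.9. Values are as listed, and oxidative stress gave the highest point for 11 of the 13 mRNAs. Among these, mt-Nd3 with its nuclear copy added was highest in glutamine depletion, at 3738 against 3604 TPM in oxidative stress.

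Some mRNAs cannot be read alone, because the nuclear genome carries near-identical copies of them. A search of the GENCODE M21 transcripts (build GRCm38) found 7 unprocessed pseudogenes that matched a member at 99% identity or more over at least 100 bases. They lie next to one another on the minus strand of chromosome 1, between chr1:24611535 and chr1:24616197, in the order of mt-Co1, mt-Co2, mt-Atp6, mt-Co3, mt-Nd3, mt-Nd4l and mt-Nd4. Kallisto, the program that estimated the TPM, divides a read that fits several transcripts among them. The copy of mt-Nd3, Gm28438, differed from it at 1 of 345 aligned bases, T3C, and the copy of mt-Co1, Gm29216, at 1 of 483, A1066T, with positions counted from 1 at the 5′ end of the mitochondrial transcript. The sequences around these bases are shown because a read within the aligned part that misses them fits both genes; the differing base is in capitals, and each is given 5′ to 3′ on its own strand.
mt-Nd3, chrM:9459-9491, plus strand: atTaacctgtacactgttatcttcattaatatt
Gm28438, chr1:24613087-24613119, minus strand: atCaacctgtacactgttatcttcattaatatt
mt-Co1, chrM:6390-6423, plus strand: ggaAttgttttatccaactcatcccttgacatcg
Gm29216, chr1:24616155-24616188, minus strand: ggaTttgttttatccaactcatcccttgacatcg

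The copies of mt-Co2 (Gm28661), mt-Atp6 (Gm10925), mt-Co3 (Gm28437), mt-Nd4l (Gm10222) and mt-Nd4 (Gm28439) were identical to the member over the whole alignment, of 681, 678, 783, 294 and 876 bases. The first 60 bases of mt-Co2 stand here for such an identical stretch, since they open both mt-Co2 and Gm28661 and no base marks a difference.
mt-Co2, chrM:7013-7072, plus strand: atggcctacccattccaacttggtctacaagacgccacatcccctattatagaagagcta

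For mt-Nd1, mt-Nd2, mt-Atp8, mt-Nd5, mt-Nd6 and mt-Cytb no copy passed this rule. Of these, mt-Atp8 shares 43 of its 204 bases with Gm10925 at 100% identity, too short a stretch for the rule, so its reads there can still be divided. The 7 copies together held between 0.291% (ER stress) and 0.707% (glutamine depletion) of a library's TPM, against 4.40% to 8.10% for the 13 mRNAs.

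mt-Nd3, a small membrane subunit of complex I, was the member whose value depended most on its copy. Its TPM was 2012 in the control, 2590.4 in glucose depletion, 1349 in glutamine depletion, 2406 in hypoxia, 2192 in ER stress, 3577 in oxidative stress and 1151 in osmotic stress. Gm28438 was listed at 1295, 870.1, 2388, 397, 272, 26.8 and 183 TPM in the same order. mt-Nd3 was below the control in glutamine depletion, where the copy held 63.9% of the pair, and in osmotic stress, where it held 13.7%. In oxidative stress, where mt-Nd3 was highest, the copy held 0.745%. The sum of both genes was 3307 TPM in the control and 3460.5, 3738, 2803, 2464, 3604 and 1334 TPM in the 6 conditions. On that sum the log2 change in glutamine depletion was 0.18 in place of -0.58, and in ER stress -0.42 in place of 0.12.

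mt-Co2, which carries a copper centre that takes electrons from cytochrome c, showed a similar dependence. It had 4588 TPM in the control, 4851 in glucose depletion, 5721 in glutamine depletion, 5906 in hypoxia, 4307 in ER stress, 8662 in oxidative stress and 4416 in osmotic stress. Its copy Gm28661 was listed at 1761, 1072, 1557, 91.2, 188, 143 and 917 TPM. In hypoxia the log2 change was 0.36 for mt-Co2 alone and -0.08 for the sum, and in oxidative stress it was 0.92 alone and 0.47 for the sum.

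For mt-Co1, the catalytic subunit of complex IV, the copy held a steadier 27.2% to 35.1% of the pair. mt-Co1 itself had 6010.3 TPM in the control, 6118 in glucose depletion, 7093 in glutamine depletion, 5896 in hypoxia, 4497 in ER stress, 8581 in oxidative stress and 5949.7 in osmotic stress. The copy of mt-Atp6 ranged from 15.3 to 601 TPM, at most 10.2% of its pair, and that of mt-Co3 reached at most 19.0 TPM. Gm10222 was listed at 0 in the 7 libraries and Gm28439 at no more than 0.0967 TPM, so adding them left the changes of mt-Nd4l and mt-Nd4 as listed to 2 decimals. How many of these reads came from nuclear RNA was not tested.

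**Figure D2:**
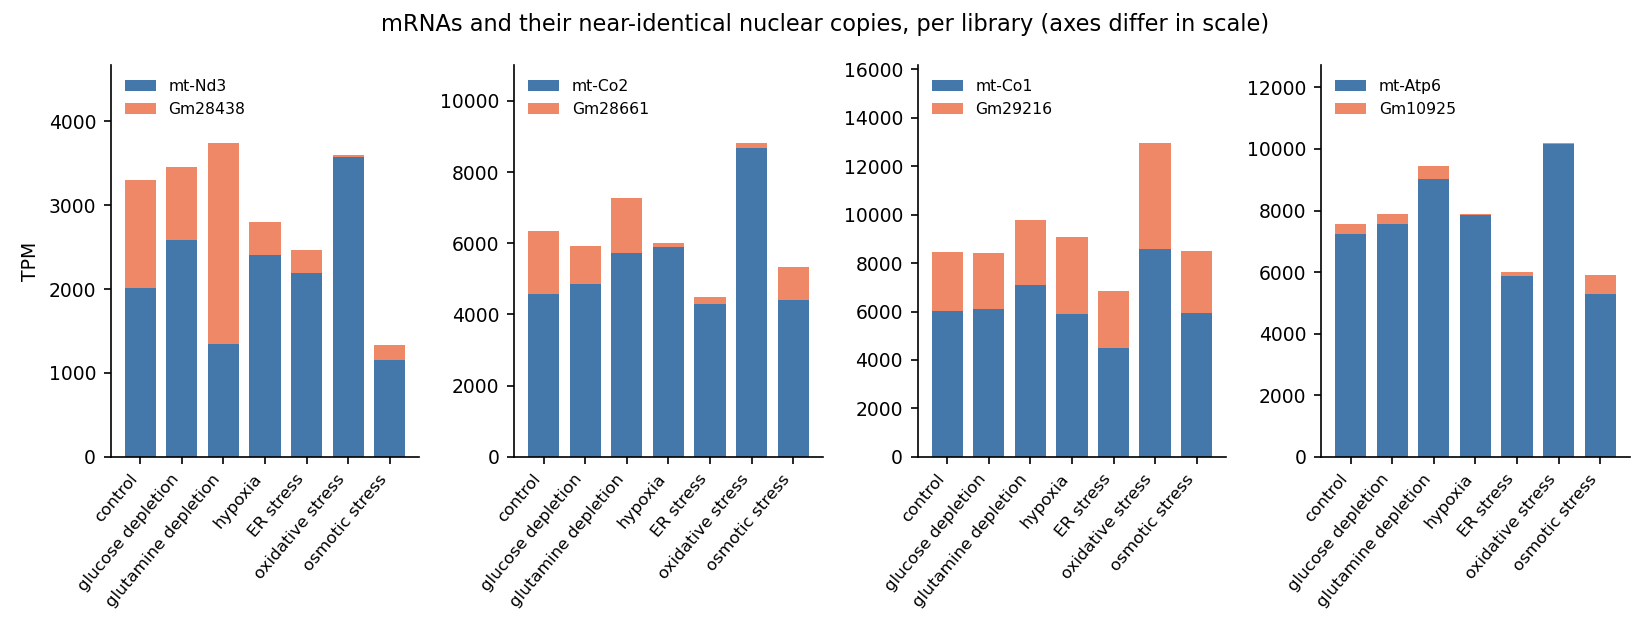
TPM of mt-Nd3, mt-Co2, mt-Co1 and mt-Atp6 (blue) with the TPM of the near-identical nuclear copy stacked on top (orange), 1 bar per library, with an axis of its own for each pair. The copy of mt-Nd3 went from 2388 TPM in glutamine depletion to 26.8 TPM in oxidative stress, while the copy of mt-Co1 kept between 27.2% and 35.1% of the stack.

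The share of all TPM that came from the 13 mRNAs was 5.63% in the control. It was 5.84% in glucose depletion, 6.86% in glutamine depletion, 5.74% in hypoxia, 4.40% in ER stress, 8.10% in oxidative stress and 4.47% in osmotic stress. Oxidative stress thus had the highest share, 1.44 times that of the control, and ER stress and osmotic stress the lowest, 0.781 and 0.795 times that of the control. With the copies added, the shares ran from 4.69% in ER stress to 8.56% in oxidative stress and the control stood at 6.21%, with hypoxia at 6.11%, just below the control in place of just above it. By complex, the 7 complex I entries held 1.51% of the control library, mt-Cytb 0.320%, the 3 complex IV entries 1.88% and the 2 complex V entries 1.92%. mt-Atp8 and mt-Atp6 are read from 1 mRNA, as are mt-Nd4l and mt-Nd4, so such an mRNA counts under both of its entries. In oxidative stress the same groups held 2.21%, 0.424%, 2.68% and 2.79%, each above its control value.

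**Figure D3:**
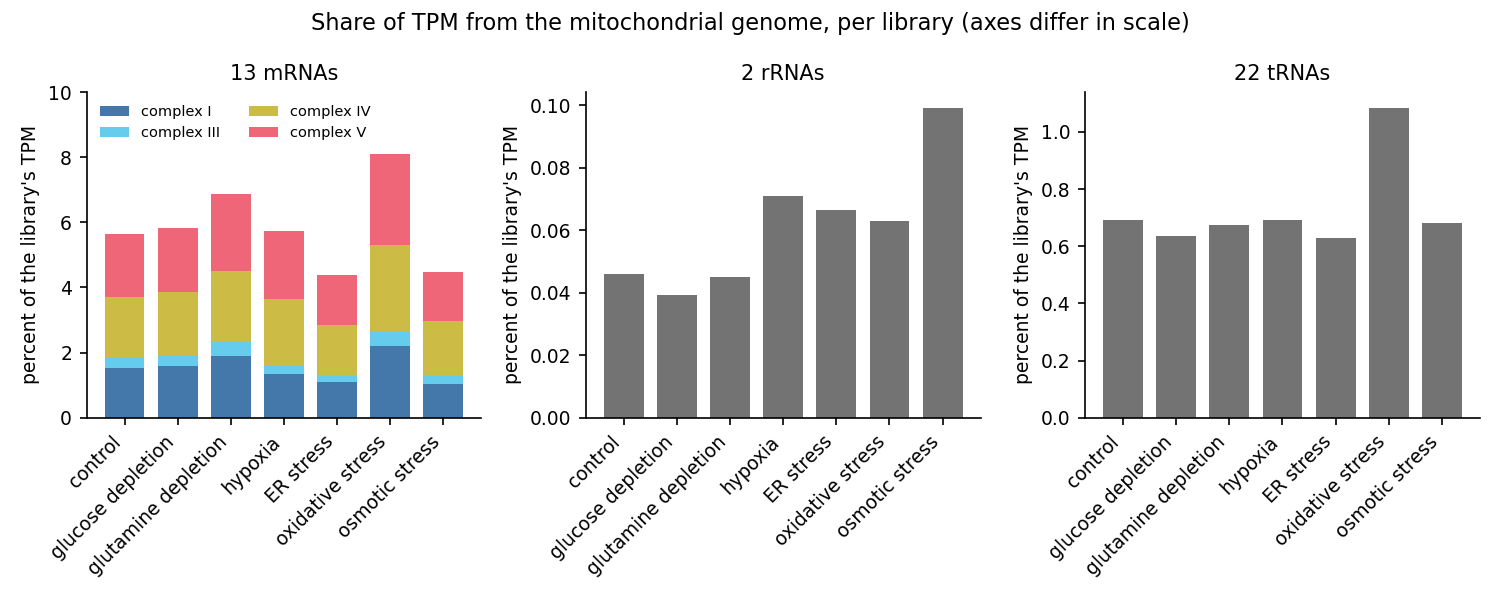
Percent of each library's TPM from the 13 mRNAs (stacked by complex), the 2 rRNAs and the 22 tRNAs, with 1 bar per library and axes that start at 0 but differ in scale. The mRNA share ran from 4.40% in ER stress to 8.10% in oxidative stress, while the rRNA share was highest in osmotic stress at 0.0993%.

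No mRNA rose or fell by more than 2-fold in any of the 6 conditions, and the changes ran from -0.82 to 0.92 on the log2 scale. Under glucose depletion the 13 mRNAs stayed close to the control, with a median change of 0.06 and a range from -0.11 (mt-Nd1) to 0.36 (mt-Nd3). The largest of these, that of mt-Nd3, was 0.07 with its copy added. Among the background genes, 1.83% were higher and 2.41% lower by more than 2-fold, and 3.47% higher and 6.23% lower by more than 1.5-fold. None of the 13 mRNAs passed either fold.

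In glutamine depletion 12 of the 13 mRNAs were higher than in the control, by a median of 0.32. mt-Nd2, a membrane subunit of complex I, was at 2829.6 TPM against 1968 in the control (0.52), and mt-Cytb at 4310.2 against 3198 TPM (0.43). The exception, mt-Nd3, was above the control on the sum with its copy, so that 13 of 13 were higher when copies were added. None of the mRNAs was past 1.5-fold, a size that 7.47% of background genes reached upward and 10.6% downward. At 2-fold the background percentages were 3.21% upward and 3.21% downward.

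In hypoxia the mRNAs lay on both sides of the control, 7 higher and 6 lower as listed. mt-Nd1 was lowest relative to the control, at 2331 against 3758 TPM (-0.69), followed by mt-Nd2 at 1526 against 1968 TPM (-0.37) and mt-Cytb at 2550.3 against 3198 TPM (-0.33). mt-Nd5 (0.00), mt-Nd6 (0.06), mt-Co3 (0.10), mt-Atp6 (0.12) and mt-Atp8 (0.12) were close to the control, and the median over the 13 was 0.00. mt-Nd4l (-0.20), mt-Nd4 (-0.05) and mt-Co1 (-0.03) were below the control, and mt-Nd3 (0.26) and mt-Co2 (0.36) above it as listed. With copies added, mt-Nd3 was at -0.24, mt-Co2 at -0.08 and mt-Co1 at 0.11. The median was then -0.05, with 6 of the 13 higher and 7 lower. The ratio of mt-Atp8 to mt-Nd1 TPM, 3.18 in the control, was 5.57 in hypoxia, the highest of the 7 libraries. Neither gene has a copy under the rule, although mt-Atp8 shares 43 bases with mt-Atp6 and Gm10925. mt-Nd1 was the 1 mRNA past 1.5-fold, against 7.23% of background genes higher and 8.1% lower by that size. By more than 2-fold, 3.57% of the background was higher and 2.64% lower.

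ER stress gave lower values for 12 of the 13 mRNAs, with a median of -0.40. The largest differences were again those of mt-Nd1, 2130.4 against 3758 TPM (-0.82), and mt-Nd2, 1214 against 1968 TPM (-0.70), the pair past 1.5-fold. mt-Cytb was at 2143 TPM (-0.58) and mt-Atp8 at 9502 TPM (-0.33). mt-Nd3 was the exception as listed (0.12), and on the sum with its copy all 13 were lower, with changes between -0.82 and -0.30. This condition moved more genes than the others, with 8.6% of the background higher and 11% lower by more than 2-fold, and 19% higher and 21.3% lower by more than 1.5-fold. The 2 mRNAs past 1.5-fold are 2 of 13, a share below that of background genes lowered by that size.

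Oxidative stress was the condition in which 13 of 13 mRNAs were higher than in the control, as listed and with copies added. The median change was 0.51, or 0.67 relative to the median gene. mt-Atp8 reached 17779.9 TPM against 11948 in the control (0.57), and mt-Nd6, 2965 against 1841 TPM (0.69). mt-Nd5, a large membrane subunit of complex I, was at 2285 against 1537 TPM (0.57), while mt-Co3, which completes the core of complex IV, moved least (0.22). mt-Co2 and mt-Nd3 had the highest listed changes, 0.92 and 0.83, which were 0.47 and 0.12 with the copies added. mt-Co2, mt-Nd3, mt-Nd4 (0.61) and mt-Nd6 were past 1.5-fold, 4 of 13, against 7.27% of background genes higher and 16.2% lower. With copies added, mt-Co2 and mt-Nd3 were not past it, and mt-Co1 was (0.62), though not with copies weighted by length (0.55). At 2-fold, 3.94% of the background was higher and 4.85% lower.

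Osmotic stress gave lower values for 13 of the 13 mRNAs as listed and for 11 relative to the median gene, where mt-Co1 and mt-Co2 were higher by 0.11 and 0.07. The median change was -0.36, or -0.24 relative to the median gene. Against the control itself, mt-Co1 (-0.01) and mt-Co2 (-0.05) were the nearest as listed, and mt-Co2 was at -0.25 with its copy added. mt-Nd5 was at 969 against 1537 TPM (-0.66), mt-Nd6 at 1159.7 against 1841 TPM (-0.67) and mt-Nd3 at 1151 against 2012 TPM (-0.81). These 3 were past 1.5-fold, against 6.56% of the background higher and 19.5% lower by that size. On the sum with its copy mt-Nd3 fell by 1.31 on the log2 scale, past the 2-fold that 8.76% of background genes passed downward and 3.08% upward, and mt-Co1 was at 0.01.

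The 6 mRNAs without a near-identical copy (of which mt-Atp8 shares 43 bases with Gm10925) were also read as a set. Their median changes were 0.02 in glucose depletion, 0.44 in glutamine depletion, -0.16 in hypoxia, -0.49 in ER stress, 0.49 in oxidative stress and -0.51 in osmotic stress. All 6 were higher in glutamine depletion and in oxidative stress, and all 6 were lower in ER stress and in osmotic stress. In hypoxia they ran from -0.69 (mt-Nd1) to 0.12 (mt-Atp8). In glucose depletion the range was -0.11 to 0.14.

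Composition within the mitochondrial mRNAs was taken as each gene's percent of their summed TPM, as listed and without copies. mt-Atp8 made up 20.8% to 22.6% of the summed TPM of the 13 mRNAs in each of the 7 libraries, a ratio of 1.09 between highest and lowest. The share of mt-Nd1 ranged from 4.06% in hypoxia to 6.73% in glutamine depletion, a ratio of 1.66, and that of mt-Nd2 from 2.66% in hypoxia to 4.13% in glutamine depletion. mt-Nd3 had the widest range, 1.97% to 4.99%, and the share of its pair held by the copy ranged from 0.745% to 63.9%. mt-Co1 was between 10.2% and 10.7% in 6 libraries and at 13.3% in osmotic stress.

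The overlapping gene pairs below kept nearly fixed ratios, whether or not they share an mRNA. mt-Atp8 and mt-Atp6 are read from 1 mRNA in different frames and have 43 bases in common, which also open Gm10925. They are shown because 3 rows of the table hold them, and no base is in capitals since none differs.
mt-Atp8 and mt-Atp6, chrM:7927-7969, plus strand: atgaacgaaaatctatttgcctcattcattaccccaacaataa

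The TPM of mt-Atp8 was 1.61 to 1.82 times that of mt-Atp6 in the 7 libraries. mt-Nd4l and mt-Nd4, which also lie on 1 mRNA, had ratios between 0.902 and 1.02. mt-Nd6, the light-strand mRNA, lies opposite the end of mt-Nd5 and its downstream region, and the ratio of mt-Nd6 to mt-Nd5 was 1.20 to 1.30. The library kit marks strand, but the counting was done at kallisto's default settings, which do not use it. RNA of the opposite strand therefore cannot be told apart from mt-Nd6 RNA in these values. Position along the heavy strand and change had Spearman's rho between -0.07 and 0.33 over the 12 heavy-strand mRNAs in the 6 conditions. This is a description across genes that share their libraries and their precursor, and copies were not added for it.

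The 2 rRNAs lay on the other side of the control from the median of the 13 mRNAs in glucose depletion, glutamine depletion, ER stress and osmotic stress, although relative to the median gene they were at 0.05 in glutamine depletion, on the same side as the mRNAs. mt-Rnr1 (12S), the RNA of the small mitochondrial ribosomal subunit, had 241 TPM in the control, 190.4 in glucose depletion, 234 in glutamine depletion, 329 in hypoxia, 327 in ER stress, 340.2 in oxidative stress and 529.9 in osmotic stress. mt-Rnr2 (16S), the RNA of the large subunit, had 221, 202, 217, 381, 336, 288 and 463 TPM in that order. Both rose by more than 2-fold in osmotic stress, by 1.14 and 1.07, against 3.08% of background genes that rose past 2-fold there. This was the condition in which the 13 mRNAs were below the control. In hypoxia, ER stress and oxidative stress the pair was also higher, with changes between 0.38 and 0.78.

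The ratio of summed mRNA to summed rRNA TPM was 122 in the control and 45.1 in osmotic stress. It was 66.3 in ER stress, 80.8 in hypoxia, 129 in oxidative stress, 149 in glucose depletion and 152 in glutamine depletion. The libraries were made from poly(A) RNA, and the rRNAs together held 0.0392% to 0.0993% of TPM, so these values follow the rRNA that passed the poly(A) step as well as its amount in the cell, which cannot be told apart here.

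The 22 tRNAs are 59 to 75 bases long, shorter than the 76-base reads, and mature tRNAs carry no poly(A) tail, so their TPM are unreliable and are given as listed. mt-Tf, mt-Tv, mt-Tr and mt-Tt, named here after their values were seen, were at 0 in the 7 libraries and all lie on the heavy strand. Of the 18 kept, 9 were above 0 in each library. mt-Td was kept through 16.9 TPM in hypoxia alone, and such a tRNA had to differ between libraries.

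The tRNAs were split by strand. The 8 light-strand tRNAs held 94.0% to 97.9% of the tRNA TPM of a library, 6511 against 413 TPM on the heavy strand in the control. The split is by the strand of the gene, while the counting, at kallisto's default settings, did not use strand. RNA of the opposite strand therefore cannot be told apart from tRNA or its precursor in any of the tRNA values. The 7 tRNAs with the highest means were all of the light strand, while no heavy-strand tRNA exceeded 153 TPM in any library. mt-Tp, the proline tRNA, had the highest mean and lies beside mt-Tt, the threonine tRNA listed at 0, on the opposite strand. Their transcripts are printed with mt-Te, the glutamate tRNA just upstream of mt-Nd6 on the light strand, as the tRNAs described here, with no base singled out by capitals.
mt-Tp, chrM:15356-15422, minus strand: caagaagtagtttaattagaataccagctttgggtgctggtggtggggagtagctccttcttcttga
mt-Tt, chrM:15289-15355, plus strand: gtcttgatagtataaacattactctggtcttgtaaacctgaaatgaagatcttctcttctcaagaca
mt-Te, chrM:14071-14139, minus strand: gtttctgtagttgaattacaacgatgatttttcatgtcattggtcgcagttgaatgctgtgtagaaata

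mt-Te had 433 TPM in the control, 859 in glucose depletion, 676 in glutamine depletion, 539 in hypoxia, 536 in ER stress, 2126 in oxidative stress and 312 in osmotic stress. It rose by 2.29 in oxidative stress, while mt-Nd6, the neighbouring gene on the same strand, was higher by 0.69. Both values can include RNA of the opposite strand. mt-Ts1, a serine tRNA, also rose in oxidative stress, from 975 to 2107 TPM (1.11). Of the background genes, 3.94% rose past 2-fold in that condition. mt-Tc, the cysteine tRNA (0.31), mt-Tn, the asparagine tRNA (0.78), and mt-Tp (-0.01) were within 2-fold there. The summed tRNA share was 1.09% in oxidative stress and between 0.629% and 0.692% in the other 6 libraries. Counts of tRNAs past 2-fold are left out, since tRNAs at 0 in the control, such as mt-Td and mt-Ti, passed the filter only through the libraries in which they are listed.

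**Figure D4:**
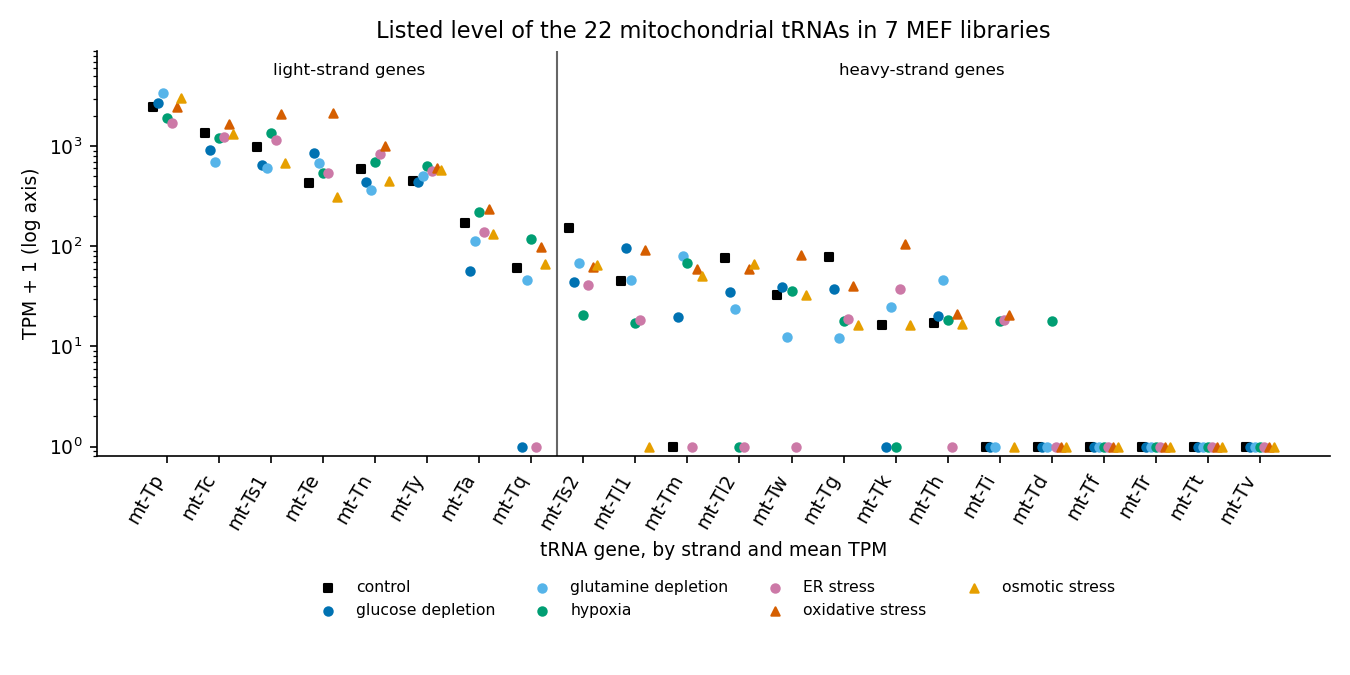
Listed level of the 22 tRNAs as TPM + 1 (log axis), 1 point per library, with light-strand genes left of the line and heavy-strand genes right of it, each ordered by mean. The light-strand tRNAs held 94.0% to 97.9% of tRNA TPM, and the 4 tRNAs at the right end were at 0 TPM in the 7 libraries.

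The nuclear genes that work with these RNAs were read beside them. Of 77 nuclear subunits of complexes I to V, all kept, the median change was -0.02 in glucose depletion, -0.16 in glutamine depletion, -0.09 in hypoxia, -0.29 in ER stress, -0.16 in oxidative stress and 0.00 in osmotic stress. The medians of the mitochondrial mRNAs in glutamine depletion (0.32) and oxidative stress (0.51) were thus on the other side of 0. Relative to the median gene, the nuclear subunits were at 0.00 in oxidative stress and 0.12 in osmotic stress. In ER stress both medians were below 0, and 4 of the 77 fell past 2-fold, a smaller share than the 11% of background genes that did. These were Atp5k, a small subunit of ATP synthase, from 319 to 100.2 TPM (-1.66), Uqcrh, the hinge protein of complex III, from 405 to 149.6 TPM (-1.43), and, named after their values were seen, Ndufb3 (-1.30) and Cox7a2 (-1.14). In hypoxia 1 of the 77 rose, Ndufv3, a subunit of complex I, from 101 to 267 TPM (1.39), against 3.57% of the background.

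The 78 mitochondrial ribosomal protein genes, all kept, had medians of -0.02, -0.19, -0.29, 0.02, -0.29 and -0.24 in the 6 conditions in the order above. In osmotic stress, where both rRNAs rose, 0 of the 78 rose and 4 fell past 2-fold, against 3.08% and 8.76% of the background. Mrpl44 went from 15.2 to 3.08 TPM (-1.99) and Mrpl19 from 39.1 to 12.95 TPM (-1.52), while Mrpl23 (-1.13) and Mrpl50 (-1.09) are named after their values were seen. In ER stress 3 rose and 3 fell, smaller shares than the 8.6% and 11% of the background. The rises were those of Mrps31 (1.06), Mrps18b (1.06) and Mrpl2 (1.00), and the falls those of Mrps25 (-1.42), Mrpl49 (-1.19) and Mrpl18 (-1.16), of which Mrpl2 and the falls are named after their values were seen. The falls past 2-fold elsewhere were Mrpl23 in glucose depletion (-1.13), Mrps27 in hypoxia (-1.04) and Mrps35 in oxidative stress (-1.04), chosen likewise after their values were seen.

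Of 26 genes for transcription, replication, processing, stability and decay of mitochondrial nucleic acids, 24 were kept. Their median was 0.59 in ER stress, against 0 over the background genes. There 21 of the 24 were higher than in the control and 12 of the 13 mitochondrial mRNAs lower, and a link between these was not tested. The rises past 2-fold there, 3 of 24 against 8.6% of the background, were Trmt10c, a subunit of the RNase P that cuts the 5′ ends of tRNAs, from 16.5 to 41.1 TPM (1.26), Tbrg4, an RNA-binding protein also called Fastkd4, from 39.1 to 90.4 TPM (1.19), and Tfb2m, a transcription initiation factor named after its value was seen, from 26.4 to 58.0 TPM (1.11).

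In osmotic stress the median of this list was -0.49, and 6 of the 24 fell against 8.76% of the background. Tefm, the elongation factor of the mitochondrial RNA polymerase, went from 12.3 to 1.83 TPM (-2.23), and Mterf1a, a termination factor, from 4.21 to 0.0997 TPM (-2.24). Fastkd1 (-1.48), Fastkd5 (-1.15), Mtpap, the poly(A) polymerase of mitochondria (-1.14), and Twnk, the replicative helicase (-1.09), fell as well and did so outside the naming rule. Tefm and Mterf1a also fell in oxidative stress (-1.13 and -1.26), the condition in which the 13 mRNAs were higher. In the remaining conditions 0 of the 24 rose or fell past 2-fold, where the medians were -0.05 (glucose depletion), -0.15 (glutamine depletion) and -0.23 (hypoxia). The median in oxidative stress was -0.29.

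The central factors themselves moved within 2-fold in each condition. Polrmt, the RNA polymerase of mitochondria, had 21.99 TPM in the control library and between 13.6 TPM (oxidative stress, -0.65) and 19.8 TPM (ER stress) elsewhere. Tfam, which packages the mitochondrial DNA and starts transcription, went from 29.4 TPM to 43.8 without glutamine (0.56), to 49.4 with thapsigargin (0.73) and to 26.8 with arsenite (-0.13). Lrpprc, which with Slirp stabilises the mRNAs, had 26.6 TPM without stress and 39.8 with thapsigargin (0.56), and Slirp ranged from 95.4 to 127 TPM with changes between -0.31 and 0.10.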

How the data were processed

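RNA-seq of MEFs comprised 7 libraries, grouped by their labels. MEFs were wild type and, per the study's methods, sorted against macrophage markers. Per the labels, libraries followed a stranded poly(A) protocol with paired 76-base reads. The authors deposited TPM estimated with kallisto 0.43.1 at default settings against GRCm38 cDNA of Ensembl release 90, with each gene's transcripts added up. Default settings do not use strand. TPM keep no depth, so no interval for counting error was available.

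Changes are log2(TPM + 1) of a condition minus that of the control. Rows with a mean of at least 2 TPM were kept. The 2-fold rule follows the study's methods, and with 1 library per condition no test was made. Nuclear copies were found with BLAST 2.17.0 among GENCODE M21 transcripts, which also gave coordinates and sequences. Members and lists were chosen with earlier results of these data known. Named were the 13 mRNAs, both rRNAs, the 5 tRNAs with the highest means, and from each nuclear list the 2 largest rises and falls past 2-fold, with Polrmt, Tfam, Lrpprc and Slirp. Alternatives were pseudocounts of 0.1 and 5 TPM, other filters, centring on the median gene, thresholds of 1.5-fold and 3-fold, the median library as reference, rescaling without mitochondrial rows, and added copies. Weighting copies by length was added after seeing the data. Only the log2 change, without a pseudocount, and the 2-fold rule were checked on simulated data. Python 3.11.15, numpy 2.4.6, pandas 2.3.3, scipy 1.17.1 and matplotlib 3.10.9 were used.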

Additional observations from a re-analysis of the deposited data

How the results depend on the processing

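A log2 value was counted as moved when it differed by 0.1 or more. A count or a percentage was counted as moved when it differed by more than 1.5-fold, and a count also when it went from 0 to above 0. Centring on the median gene put the median of the 13 mRNAs at 0.67 in oxidative and -0.24 in osmotic stress, and left 1 of the 13 (mt-Co2) past 2-fold in oxidative stress. At 1.5-fold, 1 mRNA passed in hypoxia, 2 in ER stress, 4 in oxidative and 3 in osmotic stress, and with copies added, weighted by length or not, 1 passed 2-fold in osmotic stress. The pseudocounts, the median library as reference and rescaling without mitochondrial rows left these medians and counts as they were within the tolerance, and no setting moved the log2 ratio of an mRNA share to the control by over 0.1. Single mRNAs that reversed were mt-Co1 in hypoxia (0.11 with the copy) and osmotic stress (0.11 centred), mt-Co2 in glucose depletion (-0.10) and hypoxia (-0.082, or -0.0804 weighted) with its copy, and mt-Nd3 in glutamine depletion (0.18, or 0.17 weighted), hypoxia (-0.24, or -0.24 weighted) and ER stress (-0.42, or -0.42 weighted) with its copy. mt-Tp in oxidative stress was at 0.15 after centring. Centring put the nuclear respiratory subunits at 0.000176 in oxidative and 0.12 in osmotic stress, the mitochondrial ribosomal proteins at -0.14 and -0.12, and the RNA machinery at -0.14 and -0.37. With a pseudocount of 5 TPM the machinery was at 0.47 in ER stress and -0.36 in osmotic stress. Without an expression filter the percent of all genes past 2-fold was 2.45 in glucose depletion, 2.95 in glutamine depletion, 3.10 in hypoxia, 7.20 in ER stress, 3.88 in oxidative and 4.96 in osmotic stress, and with a mean of at least 10 TPM it was 1.79, 4.04 and 3.48 in the first 3, 5.47 in oxidative and 6.71 in osmotic stress. The causes of these moves were not tested. No replicate could be left out, and depth, which is unknown, sets no limit that could be stated. No paired analysis was possible because each condition has 1 library.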
